A study of Homo sapiens with 18 samples.

Results

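The data described here are 6 expression arrays of SK-N-BE(2), a MYCN-amplified human neuroblastoma cell line, in which ERK5 was targeted with either of 2 different short hairpin RNAs. The members were chosen by their titles. All 3 arrays of cells given the hairpin shERK5-4 were set against all 3 arrays of cells given the hairpin shERK5-5, and every probe was used. They are 6 of the 18 arrays of a study of ERK5 silencing in SK-N-BE(2) and in a second neuroblastoma line, CHLA-90. Each group had 3 biological replicates, and all cells, controls included, had been transduced with pLKO lentivirus made in HEK-293T cells. Wells held 250000 cells and RNA was taken 72 hours after transduction. The control hairpin is shNSC, with 3 arrays in each line. The comparison asks how far the transcriptomes of cells carrying 2 hairpins against the same gene differ.

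ERK5, encoded by MAPK7, is a mitogen-activated protein kinase that is switched on by the kinase MEK5 and phosphorylates MEF2 transcription factors, and it can itself act on transcription through its long C-terminal extension. A short hairpin RNA is processed by DICER and loaded into an Argonaute protein, which silences transcripts that pair with the guide strand. Different hairpins against one gene share that target but not their other pairings, so they are commonly used side by side. The sequences of shERK5-4 and shERK5-5 were not used here.

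The arrays carried 21448 probes, of which 17709 had 1 gene symbol, and all values below are log2 signals as deposited. Medians of the 9 SK-N-BE(2) arrays lay between 5.63 and 5.69. Across probes, arrays correlated with r between 0.988 and 0.992 within shERK5-4, between 0.994 and 0.996 within shERK5-5, and between 0.971 and 0.978 across the hairpins. The median SD of a probe over its 3 arrays was 0.252 with shERK5-4, 0.175 with shERK5-5 and 0.184 with shNSC, so the shERK5-4 arrays were the more variable. Of 12 neuroblastoma markers 11 had a named probe, and their mean log2 level lay between 10.6 and 12.1 in all 9 arrays. The mean log2 level of 8 endothelial markers lay between 4.01 and 4.35, and that of 7 Schwann cell markers between 3.58 and 3.89.

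MAPK7 itself was measured at 5.97, 6.28 and 6.02 with shERK5-4, at 6.14, 6.02 and 6.28 with shERK5-5, and at 6.99, 6.46 and 6.90 with shNSC. Every hairpin array lay below every control array, and the ranges of the 2 hairpins overlapped. The log2 difference, shERK5-4 minus shERK5-5, was -0.06 with a standard error (SE) of 0.19 and a 95% interval from -0.46 to 0.35 (limma adjusted p = 0.897). An exact two-sided permutation test over the 6 arrays gave p = 0.8, where 0.1 is the smallest value that 3 arrays against 3 allow. The interval covers differences of either sign, and a p above the threshold does not show that the transcript was equally low. Against shNSC, MAPK7 fell by 0.69 with shERK5-4 (adjusted p = 0.010) and by 0.64 with shERK5-5 (adjusted p = 0.032), 2 comparisons that share the 3 control arrays.

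Beyond MAPK7, the arrays of the 2 hairpins differed widely. At a Benjamini-Hochberg adjusted p under 0.05 in a limma model over all 18 arrays, 5246 of 21448 probes were called, which is 24.5% of those tested. Of these, 2538 (11.8%) were higher with shERK5-4 and 2708 (12.6%) were lower. A difference of at least 2-fold was reached by 2461 called probes, 1103 higher and 1358 lower, and 527 reached 4-fold. The median difference over all probes was 0.03 and the median absolute difference 0.26, and the smallest called difference was 0.40 on the log2 scale. On 7274 probes (33.9%) the 3 arrays of one hairpin all lay above the 3 of the other. Calls were concentrated among bright probes. With the probes cut by mean level into 4 equal classes, calls made up 1.88% of the dimmest class, 11.4% and 37.9% of the next and 46.6% of the brightest. For comparison, shERK5-4 against shNSC called 5133 probes (23.9%) and shERK5-5 against shNSC 2752 (12.8%, with 6.76% higher and 6.07% lower). The gap between these counts depended on the fit, and with array weights they were 4875 and 3907.

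**Figure D1:**
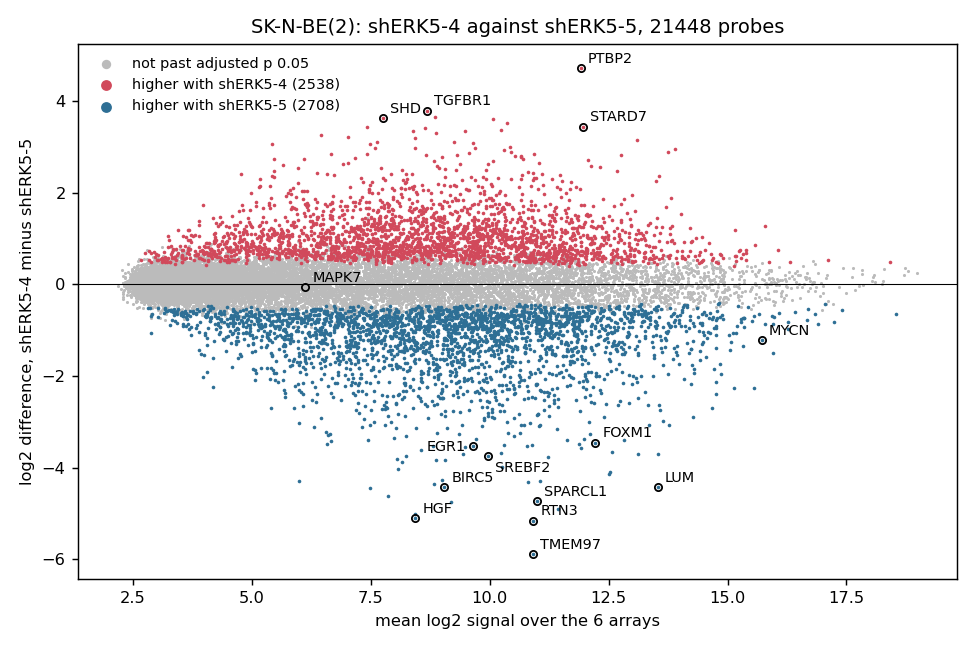
Log2 difference between the hairpins in SK-N-BE(2) (vertical axis, shERK5-4 minus shERK5-5) against the mean log2 signal over the 6 arrays (horizontal axis), 1 point per probe. The 2538 probes called higher with shERK5-4 are red, the 2708 called lower are blue and the rest grey. MAPK7, at -0.06, sits among the grey points, PTBP2 is the highest named gene at 4.72 and TMEM97 the lowest at -5.90.

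Among named genes the one most in excess with shERK5-4 was PTBP2, a splicing regulator of the nervous system. It measured 14.47, 14.23 and 14.11 with shERK5-4, 9.41, 9.60 and 9.64 with shERK5-5, and 10.44, 10.61 and 10.42 with shNSC. Only the shERK5-4 arrays stood far from the controls, and the hairpins differed 26.4-fold (log2 4.72, SE 0.15, adjusted p = 1.68e-15). TGFBR1, the type I receptor of TGF-beta, showed another arrangement. Its arrays read 10.81, 10.27 and 10.66 with shERK5-4, 6.82, 6.70 and 6.85 with shERK5-5, and 10.02, 10.05 and 9.75 with shNSC. Here the shERK5-5 arrays were the ones far from the controls, and the difference was 13.8-fold (log2 3.79, SE 0.19, adjusted p = 1.88e-12). STARD7, a carrier of phosphatidylcholine to mitochondria, was arranged in the same way. It read 13.52, 13.60 and 13.90 with shERK5-4 and 10.11, 10.40 and 10.18 with shERK5-5, beside 13.72, 13.82 and 13.79 with shNSC. Its shERK5-4 and shNSC ranges overlapped, and the hairpins differed 10.9-fold (log2 3.44, SE 0.18, adjusted p = 2.7e-12). ZDHHC20, a palmitoyltransferase (log2 difference 3.41), MED28, a Mediator subunit (3.38), and GPAM, which starts glycerolipid synthesis in mitochondria (3.35), were likewise lowest with shERK5-5. Their log2 changes against shNSC were -2.82, -2.62 and -2.77 with that hairpin, and 0.58, 0.76 and 0.58 with shERK5-4. SHD, an SH2-domain adaptor, differed by 3.63, and SERINC5, a membrane protein that restricts retroviruses, by 3.44.

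**Figure D2:**
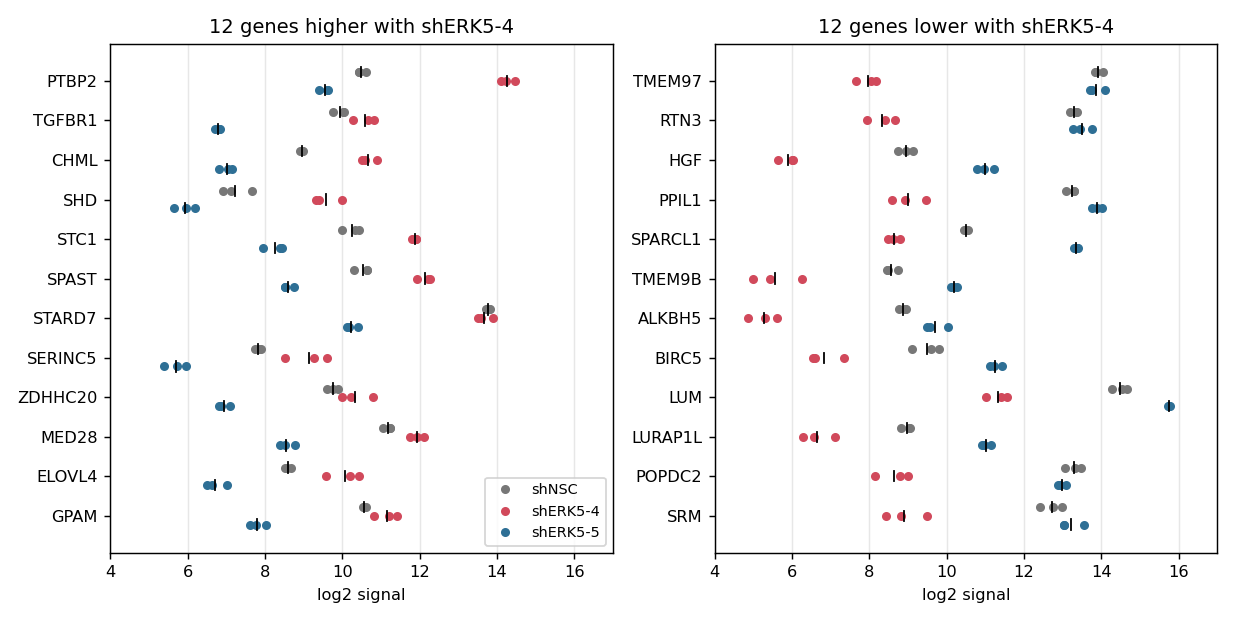
Log2 signal (horizontal axis) of the 12 genes with the most positive difference (left) and the 12 with the most negative difference (right) in SK-N-BE(2), 1 point per array and a black bar at each group's mean. Grey points are shNSC, red shERK5-4 and blue shERK5-5. For PTBP2 and TMEM97 the shERK5-4 arrays stand apart from both other groups, for STARD7 the shERK5-5 arrays do, and for CHML, HGF and SPARCL1 the controls lie between the hairpins.

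In the opposite direction TMEM97, the sigma-2 receptor and a regulator of the cholesterol transporter NPC1, had the most negative difference of all named genes. Its signal was 8.16, 7.64 and 8.05 with shERK5-4, 13.71, 13.75 and 14.08 with shERK5-5, and 13.84, 13.85 and 14.03 with shNSC. The shERK5-4 arrays were 59.6-fold below those of shERK5-5 (log2 -5.90, SE 0.16, adjusted p = 2.17e-16), whose range overlapped that of the controls. RTN3, a reticulon that shapes the endoplasmic reticulum, read 8.40, 7.94 and 8.66 with shERK5-4 against 13.27, 13.44 and 13.76 with shERK5-5 and 13.36, 13.18 and 13.35 with shNSC. Again only shERK5-4 was far from the controls (log2 difference -5.16, SE 0.19, adjusted p = 2.54e-14). The same held for the splicing cyclophilin PPIL1 (-4.89), POPDC2, a membrane protein that binds cyclic AMP (-4.32), and the spermidine synthase SRM (-4.30). Against shNSC these 3 genes changed by -4.24, -4.64 and -3.81 with shERK5-4, and their values with shERK5-5 were 0.66, which was called, and -0.32 and 0.49, which were not. ALKBH5, which removes N6-methyladenosine from RNA, differed by -4.44 and TMEM9B by -4.62.

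Several genes above also lay on opposite sides of the controls, called against shNSC with both hairpins but in different directions. PTBP2 changed by 3.78 with shERK5-4 and -0.94 with shERK5-5, and TGFBR1 by 0.64 and -3.15. MED28, GPAM, SHD, SERINC5, PPIL1, ALKBH5 and TMEM9B were called on both sides as well. The genes of this kind described next were those whose smaller change was largest. HGF, the ligand of the MET receptor, measured 5.63, 6.00 and 6.02 with shERK5-4 and 10.79, 10.97 and 11.21 with shERK5-5. The control arrays, at 9.12, 8.95 and 8.73, lay between them. The 2 hairpins therefore differed by -5.11 (SE 0.20, adjusted p = 6.33e-14), made up of -3.05 and 2.06 against shNSC. SPARCL1, a secreted matricellular protein, read 8.49, 8.60 and 8.78 with shERK5-4, 13.28, 13.40 and 13.38 with shERK5-5 and 10.49, 10.44 and 10.54 with shNSC, with no overlap among the 3 groups. LURAP1L, PRR16 and CHRM2, a muscarinic acetylcholine receptor, had log2 changes against shNSC of -2.31, -1.99 and -2.45 with shERK5-4 and of 2.05, 1.82 and 1.84 with shERK5-5. Genes that were higher than shNSC with shERK5-4 and lower with shERK5-5 included CHML, a Rab escort protein (1.73 and -1.94), the calcium- and phosphate-regulating hormone STC1 (1.61 and -1.99), the microtubule-severing enzyme SPAST (1.60 and -1.93), the activin receptor ACVR2B (1.50 and -1.77) and ELOVL4, which lengthens very long fatty acids (1.48 and -1.87). Both changes of each gene were taken against the same 3 control arrays.

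Of 14 measured members of the ERK5 cascade, 3 were called lower with shERK5-4 and 0 higher. That is 21.4%, near the 24.5% called over all probes and below the 37.9% of the third brightness class, where the list's mean level falls. The median difference was -0.16, beside 0.03 over all probes. SGK1, a survival kinase, read 11.05, 11.07 and 11.21 with shERK5-4, 13.04, 13.08 and 12.94 with shERK5-5, and 11.12, 11.17 and 10.85 with shNSC. Only shERK5-5 was away from the controls (hairpin difference -1.91, SE 0.18, adjusted p = 3.31e-08). GAB1, a docking protein for growth factor receptors, lay on opposite sides of shNSC, at -0.53 with shERK5-4 and 0.49 with shERK5-5. MAP3K3, a kinase upstream of MEK5, differed by -0.66 (adjusted p = 0.042), with overlapping arrays, and lost its call without replicate 1 of shERK5-4 (adjusted p = 0.25), without replicate 1 of shERK5-5 (0.16) and without its replicate 3 (0.15). KLF2, a transcription factor gene induced by ERK5 signalling, had a difference of -0.64 that was not called (adjusted p = 0.069). It was called without replicate 2 of shERK5-4 (adjusted p = 0.031), without replicate 3 of shERK5-5 (0.032), with the replicate block (0.038) and with array weights (0.037).

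Transcripts that report activity of the ERK1/2 pathway separated the hairpins more clearly. Of 25 output and feedback genes of MAPK signalling, 14 were called lower with shERK5-4 and 0 higher, with a median difference of -0.91. That is 56.0%, beside 24.5% over all probes and 37.9% in the third brightness class, where the list's mean level falls. Median changes against shNSC were -0.77 with shERK5-4 and 0.09 with shERK5-5, beside 0.01 and -0.0033 over all probes. EGR1, an immediate-early transcription factor, measured 7.80, 7.81 and 8.03 with shERK5-4, 11.29, 11.26 and 11.65 with shERK5-5, and 11.11, 11.52 and 11.66 with shNSC. The shERK5-5 arrays lay within the spread of the controls, and the hairpin difference was -3.52 (SE 0.20, adjusted p = 1.12e-11). DUSP6, the phosphatase that dephosphorylates ERK1/2 in negative feedback, read 9.28, 8.96 and 9.17 with shERK5-4 and 12.67, 12.60 and 12.64 with shERK5-5. Its controls lay between, at 11.61, 11.70 and 11.72, and both changes were called (-2.54 and 0.96). SPRY2, another feedback inhibitor, differed by -2.02 and IER3, an early response gene, by -2.24.

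**Figure D3:**
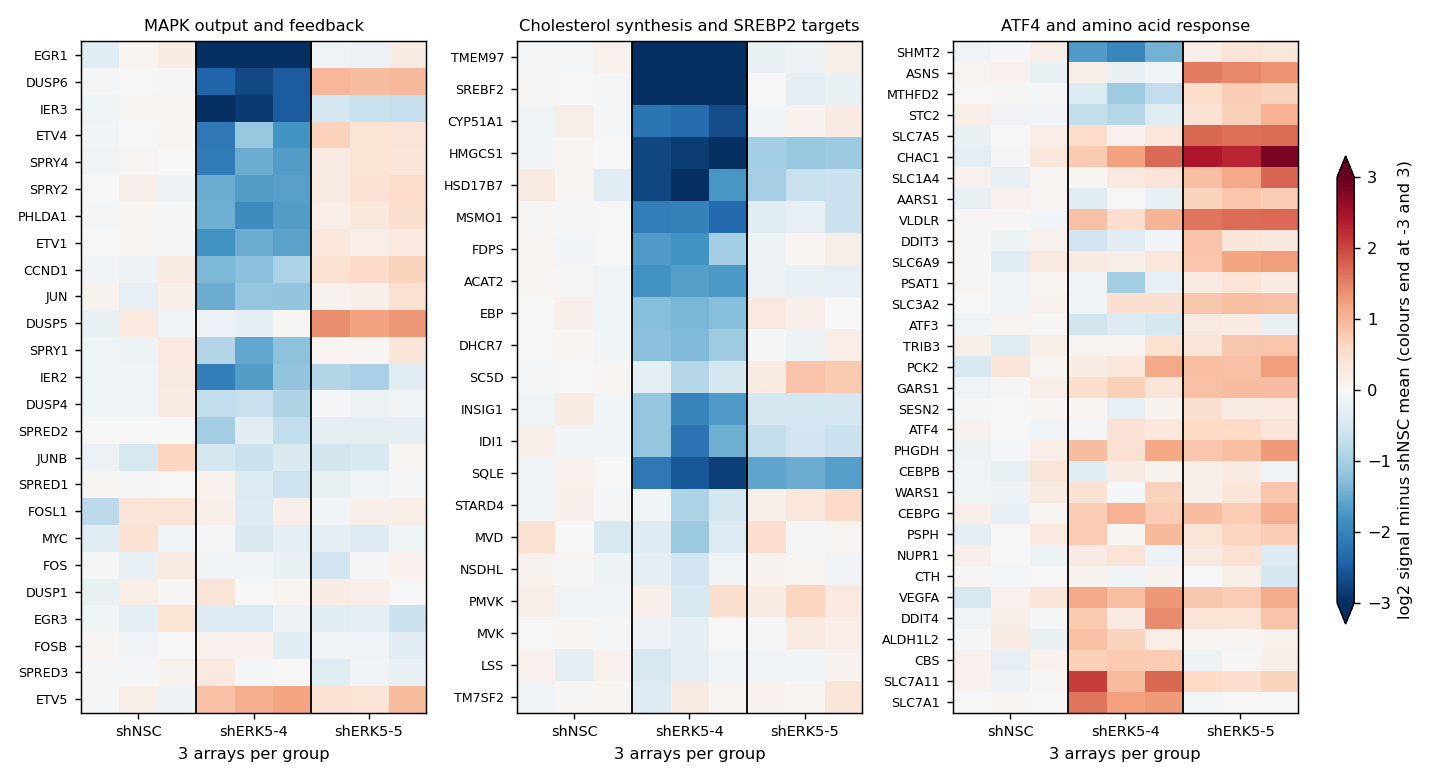
Log2 signal minus the mean of the 3 shNSC arrays in SK-N-BE(2), 1 row per gene and 1 column per array, for genes of MAPK output, cholesterol synthesis and the ATF4 response. Blue is below and red above the controls, and colours end at -3 and 3. EGR1, DUSP6, TMEM97 and SREBF2 are dark blue with shERK5-4 only, while ASNS and CHAC1 are redder with shERK5-5 than with shERK5-4.

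Most measured cell cycle genes were lower with shERK5-4. Of 39 genes of G2 and mitosis, 31 were called lower and 0 higher (median -0.91), with medians against shNSC of -0.62 with shERK5-4 and 0.40 with shERK5-5. These calls are 79.5% of the list, beside 24.5% over all probes and 46.6% in the brightest class. FOXM1, the transcription factor that drives the mitotic programme, read 10.61, 10.26 and 10.59 with shERK5-4, 14.01, 13.94 and 13.88 with shERK5-5, and 13.12, 13.12 and 13.21 with shNSC. It was below the controls with one hairpin and above them with the other (hairpin difference -3.46, SE 0.15, adjusted p = 1.3e-13). BIRC5, survivin, a subunit of the chromosomal passenger complex, was arranged alike, with 6.58, 6.55 and 7.33, then 11.11, 11.23 and 11.42, beside 9.81, 9.11 and 9.58 in the controls. The difference was -4.43 (SE 0.23, adjusted p = 2.44e-12). AURKB, the kinase of the same complex, differed by -2.92, and CCNA2, cyclin A2, by -2.48. CCNB1, the mitotic cyclin B1, differed by -1.52 and its partner CDK1 by -0.78, which was not called without replicate 2 of shERK5-4 (adjusted p = 0.069). In bulk RNA fewer cells in a phase and less RNA per cell cannot be told apart.

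Of 47 genes that act at G1/S or in replication, 76.6% were called, beside 24.5% over all probes. With shERK5-4 35 were lower and 1 higher (median -0.88, and -0.96 and -0.14 against shNSC). The exception was CCNE1, cyclin E1, at 8.01, 8.02 and 7.86 with shERK5-4 and 7.36, 7.32 and 7.34 with shERK5-5 (difference 0.62, adjusted p = 0.011). E2F8, a repressor of the E2F family, read 6.17, 5.93 and 6.41 with shERK5-4, 8.20, 8.35 and 8.43 with shERK5-5, and 8.57, 8.52 and 8.71 with shNSC. The hairpin difference was -2.16 (SE 0.18, adjusted p = 2.81e-09). RFC5, a clamp loader subunit (-2.27), CHAF1A, which deposits histones behind the fork (-2.03), DTL, a substrate receptor of CRL4 ubiquitin ligase (-1.69), and the replicative helicase subunit MCM5 (-1.15) were also lower. Among 15 G1 cyclins, CDKs and CDK inhibitors 7 were lower and 0 higher, 46.7% beside 37.9% and 46.6% in the third and the brightest class. CCND1, cyclin D1, differed by -1.75, from -1.18 with shERK5-4 and 0.57 with shERK5-5 against shNSC, and its partner CDK6 by -1.13. CDK6 was below the controls with both, by -3.66 and -2.53. RBL2, the pocket protein p130, differed by -1.64 and the CDK inhibitor CDKN1B by -0.81. Of 16 homologous recombination and Fanconi genes 11 were lower (68.8%, beside 37.9% in the third class), among them XRCC3 (-1.58), FANCI (-1.05) and FANCG (-0.96). Of 22 replication-dependent histone genes 11 were lower and 1 higher (54.5%, beside 46.6% in the brightest class), led by H2BC14 (-1.86). Histone medians against shNSC were -1.39 with shERK5-4 and -0.54 with shERK5-5. Replication-dependent histone genes are near-identical copies, so signals of single members can be shared.

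Promoters of the cell cycle lists were examined because their members moved together. Sequences are those of RefSeq for GRCh38.p14, 250 bases up to the transcription start, searched on both strands. CCAAT, the letters bound by NF-Y, occurred in 25 of the 33 promoters found for the G2 and mitosis genes (75.8%) and in 32.0% of all 35116 promoters in the table. TTTGAA, the cell cycle homology region read by the DREAM and MuvB complexes, occurred in 16 of 33 (48.5%) against 13.3%. The E2F letters TTTCCCGC were found in 9 of 42 G1/S promoters (21.4%) against 1.39%, and TTTGGCGC in 7 of 42 (16.7%) against 0.55%. Matches can overlap, as CCAAT and its reverse complement do in HMMR. The 16 G2 and mitosis genes with TTTGAA had a median difference of -0.74 and 12 of them were called lower, while the 17 without it had a median of -1.20 and 15 called lower. For CCAAT the order was the other way. The 25 genes with it had a median of -0.91 and 21 called lower, and the 8 without it -0.77 and 6 called lower. G1/S genes with TTTCCCGC had a median of -0.76 and those without it -0.91, and for TTTGGCGC the medians were -0.64 and -0.88. The promoter of HMMR, a mitotic spindle protein, is shown for its 2 copies of TTTGAA and its CCAAT boxes, and that of E2F1, the founding E2F activator, for its E2F site. HMMR is printed from chr5:163460382-163460631 on the plus strand with CCAAT (or ATTGG on the other strand) and TTTGAA in capitals, and E2F1 from chr20:33686386-33686635 on the minus strand with TTTGGCGC in capitals. A match is a description of letters, not evidence of binding.
HMMR: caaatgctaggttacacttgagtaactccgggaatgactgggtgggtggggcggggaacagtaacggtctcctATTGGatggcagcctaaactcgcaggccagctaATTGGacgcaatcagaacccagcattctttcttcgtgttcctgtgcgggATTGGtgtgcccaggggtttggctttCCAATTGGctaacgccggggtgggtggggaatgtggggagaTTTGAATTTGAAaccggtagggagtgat
E2F1: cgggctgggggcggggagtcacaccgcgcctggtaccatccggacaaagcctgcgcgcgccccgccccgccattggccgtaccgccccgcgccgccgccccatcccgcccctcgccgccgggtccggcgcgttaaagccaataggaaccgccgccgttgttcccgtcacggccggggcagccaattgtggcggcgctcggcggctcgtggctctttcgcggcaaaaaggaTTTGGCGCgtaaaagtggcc
The TTTGAA copies of HMMR lie from -28 to -23 and from -22 to -17 before the start, and the E2F letters of E2F1 from -20 to -13. HMMR read 8.55, 7.71 and 8.37 with shERK5-4 and 10.16, 10.43 and 10.52 with shERK5-5, a difference of -2.16 (SE 0.21, adjusted p = 5.19e-08). E2F1 read 5.36, 6.64 and 5.46 against 8.19, 7.54 and 7.64, a difference of -1.97 (SE 0.47, adjusted p = 0.0025), with replicate 2 of shERK5-4 above its companions but below every shERK5-5 array.

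Genes of cholesterol synthesis were lower with shERK5-4 and near the controls with shERK5-5. SREBP2, encoded by SREBF2, is the membrane-bound transcription factor that switches on the genes of the mevalonate and sterol pathway when sterols run low. Of its 21 measured list members 16 were called lower with shERK5-4 and 0 higher, with a median of -1.18. That is 76.2%, beside 24.5% over all probes and 46.6% in the brightest class. Medians against shNSC were -1.51 with shERK5-4 and -0.0033 with shERK5-5. SREBF2 itself read 8.46, 7.97 and 7.83 with shERK5-4, 12, 11.70 and 11.78 with shERK5-5, and 12.02, 11.99 and 11.95 with shNSC. The shERK5-4 arrays were 13.4-fold below those of shERK5-5 (log2 -3.74, SE 0.19, adjusted p = 2.08e-12). CYP51A1, which demethylates lanosterol, read 9.77, 9.64 and 9.30 with shERK5-4 and 11.88, 12.05 and 12.19 with shERK5-5, beside 11.83, 12.12 and 11.91 in the controls. HMGCS1, the HMG-CoA synthase at the entry of the pathway, was below the controls with both hairpins, by -2.89 with shERK5-4 and -1.08 with shERK5-5, and differed between them by -1.82. MSMO1, a sterol oxidase, differed by -1.74.

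Fatty acid genes are more the province of SREBP1. Among 12 measured, 2 were called lower and 1 higher, with a median of -0.06. That is 25% of the list, beside 24.5% over all probes and 46.6% in the brightest class, where the list's mean level falls. SCD, the stearoyl-CoA desaturase, read 14.24, 14.03 and 14.13 with shERK5-4, 13.05, 12.86 and 13.13 with shERK5-5, and 14.60, 14.92 and 14.79 with shNSC. It was therefore lower with shERK5-5 and the hairpin difference was 1.12 (SE 0.15, adjusted p = 6.28e-06). ACACA, the carboxylase that commits acetyl-CoA to fatty acids, differed by -0.69. ELOVL5 (-0.72) lost its call after quantile normalization (adjusted p = 0.078), without replicate 2 of shERK5-4 (0.18) and without replicate 3 of shERK5-5 (0.11).

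SREBF2 is a member of the pathway it activates, so its promoter is shown. The sterol regulatory element was searched as TCACNCCAC, which occurred in 1 of the 19 promoters found for the cholesterol list, that of SREBF2, and in 0.883% of all promoters. CCAAT occurred in 16 of 19 (84.2%), and those 16 genes had a median difference of -1.19 beside -0.98 in the 3 without it. The SREBF2 window is chr22:41832855-41833104 on the plus strand, with the sterol element (from -133 to -125) and a CCAAT box on the other strand (from -106 to -102) in capitals. The element of a gene can be spelled otherwise, and its absence from the other 18 says only that these letters are not in this window.
SREBF2: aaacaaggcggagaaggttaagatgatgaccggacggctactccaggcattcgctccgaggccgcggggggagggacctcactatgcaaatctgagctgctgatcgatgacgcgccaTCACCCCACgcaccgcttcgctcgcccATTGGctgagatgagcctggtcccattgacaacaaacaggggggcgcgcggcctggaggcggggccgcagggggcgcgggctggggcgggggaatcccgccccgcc

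Several genes of the amino acid response were higher with shERK5-5. ATF4 is the transcription factor of the integrated stress response and raises genes of amino acid synthesis, uptake and tRNA charging. Of 32 measured members 13 were called lower with shERK5-4 than with shERK5-5 and 3 higher (median -0.42), with medians of 0.26 with shERK5-4 and 0.63 with shERK5-5 against shNSC. The 16 calls among these 32 are a share near the 46.6% of the brightest class, where the list's mean level falls. Over all probes 24.5% were called. ASNS, asparagine synthetase, read 11.90, 11.53 and 11.60 with shERK5-4, 13.27, 13.15 and 13.06 with shERK5-5, and 11.81, 11.86 and 11.49 with shNSC. Only the shERK5-5 arrays were above the controls, by 1.44, and the hairpins differed by -1.48 (SE 0.18, adjusted p = 9.48e-07). CHAC1, which degrades glutathione, was above the controls with both, by 1.23 with shERK5-4 and 2.52 with shERK5-5. SHMT2 and MTHFD2, of mitochondrial one-carbon metabolism, differed by -2.0 and -1.38. SHMT2 was below the controls with shERK5-4 (-1.70) and not called with shERK5-5 (0.31), and MTHFD2 lay on both sides of them (-0.73 and 0.65). SLC7A1, a transporter of arginine and lysine, ran the other way. It read 11.09, 10.72 and 10.76 with shERK5-4, 9.45, 9.49 and 9.48 with shERK5-5 and 9.47, 9.52 and 9.49 with shNSC, a difference of 1.38 (SE 0.18, adjusted p = 3.97e-06).

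The promoter of ASNS, a textbook ATF4 target, is shown with the letters TGATGNAA in capitals, from -68 to -61 before the start, on chr7:97872409-97872658, minus strand. These letters occurred in 4 of 26 promoters of the list (15.4%) and in 3.14% of all promoters. The 4 genes with them had a median difference of -1.11 and the 22 without them a median of -0.42.
ASNS: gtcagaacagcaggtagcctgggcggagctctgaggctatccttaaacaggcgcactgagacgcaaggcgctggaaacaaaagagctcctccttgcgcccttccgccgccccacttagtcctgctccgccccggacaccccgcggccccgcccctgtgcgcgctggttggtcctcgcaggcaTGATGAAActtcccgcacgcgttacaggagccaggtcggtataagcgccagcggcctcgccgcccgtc

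Of 22 chaperones and unfolded protein response genes in the endoplasmic reticulum, 10 were lower with shERK5-4 and 3 higher (median -0.49). Calls made up 59.1% of the list, beside 46.6% of the brightest class, where its mean level falls. Medians against shNSC were -0.08 with shERK5-4, where 3 members were called higher and 5 lower, and 0.35 with shERK5-5, where 6 were called higher and 2 lower. XBP1, the transcription factor spliced by IRE1, read 10.48, 10.75 and 10.77 with shERK5-4, 11.48, 11.92 and 11.66 with shERK5-5 and 10.27, 10.75 and 10.35 with shNSC, so the shERK5-5 arrays alone were above the controls (difference -1.02, adjusted p = 0.00014). DERL1, of the retrotranslocation machinery, differed by -1.37 and the secreted folding factor MANF by -1.04. DERL1 was called against shNSC with shERK5-4 (-1.0) and MANF with shERK5-5 (0.63). DNAJB9, a co-chaperone that restrains IRE1, and SEL1L, an adaptor of ER-associated degradation, were higher with shERK5-4, by 1.56 and 1.06.

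Among genes of growth and energy supply, 47.8% of the MYC list and 51.9% of the hypoxia list were called, mainly lower with shERK5-4. These shares are near the 46.6% of the brightest class, where the mean levels of both lists fall. Few ribosomal protein (7.69%) and respiratory chain (16.7%) genes were called in either direction. Of 23 MYC targets and ribosome biogenesis genes 10 were lower and 1 higher (median -0.42, and -0.65 and -0.24 against shNSC). MYCN, the amplified driver of this line, read 14.84, 15.25 and 15.24 with shERK5-4, 16.36, 16.29 and 16.34 with shERK5-5, and 17.22, 17.12 and 17.06 with shNSC. The 3 groups did not overlap, and the hairpin difference was -1.22 (SE 0.17, adjusted p = 7.99e-06). NOP16, a nucleolar protein, differed by -1.39 and the box C/D snoRNP protein NOP58 by -0.92. Among 13 cytosolic ribosomal proteins only RPL14 was called (-1.11), and the list median of 0.02 changed sign with the scaling of the arrays. Of 27 hypoxia and glycolysis genes 11 were lower and 3 higher (median -0.35). ENO1, enolase 1, read 15.42, 14.90 and 15.30 with shERK5-4, 16.72, 16.61 and 16.75 with shERK5-5 and 16.51, 16.75 and 16.64 with shNSC (difference -1.49, SE 0.16, adjusted p = 1.17e-07). EGLN3, an oxygen sensor induced by HIF, differed by -1.53 and PDK1, which diverts pyruvate from the mitochondrion, by -1.28. SLC2A3, a neuronal glucose transporter, was higher with shERK5-4, at 11.14, 9.88 and 10.68 against 8.27, 8.23 and 8.35 (difference 2.28, adjusted p = 3.85e-08), as was the mitophagy receptor BNIP3L (1.27). Of 24 respiratory chain and ATP synthase genes 2 were lower and 2 higher, and leaving out 1 array at a time gave 1 or 2 lower and 0 to 5 higher, with UQCRC2 of complex III at -1.16.

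**Figure D4:**
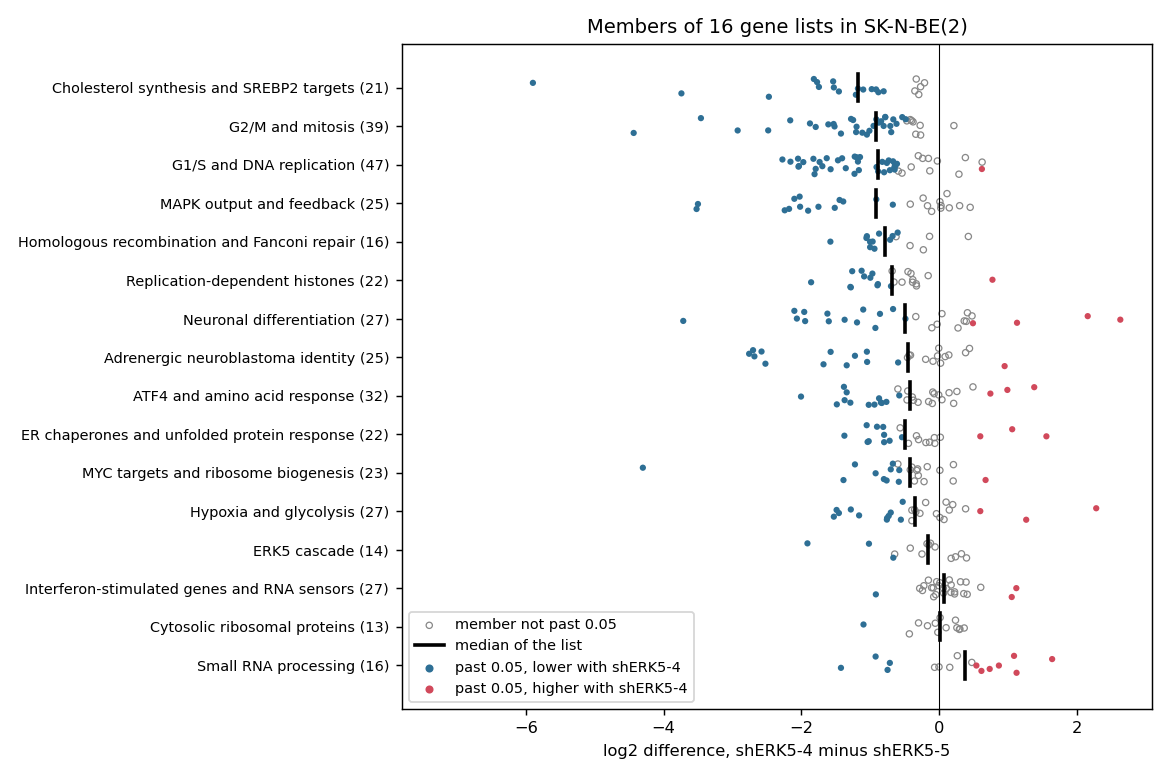
Log2 difference between the hairpins (horizontal axis, shERK5-4 minus shERK5-5) of each measured member of 16 gene lists in SK-N-BE(2), with the number of members beside each name. Filled points passed an adjusted p of 0.05, blue lower and red higher with shERK5-4, open points did not, and black bars are list medians. Medians run from -1.18 for cholesterol synthesis to 0.37 for small RNA processing.

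The adrenergic and mesenchymal identity lists were called at shares not far from those of all probes at their level. Adrenergic neuroblastoma cells resemble sympathetic neuroblasts and carry a circuit of homeodomain, HAND and GATA factors, while mesenchymal cells resemble neural crest. Of 25 adrenergic genes 12 were lower with shERK5-4 and 1 higher (median -0.46, and -0.39 and 0.05 against shNSC). That is 52.0% called, beside 46.6% in the brightest class, where the list's mean level falls. ISL1, a homeodomain factor of sympathetic neurons, read 11.05, 10.48 and 10.97 with shERK5-4, 13.35, 13.50 and 13.38 with shERK5-5 and 13.80, 13.80 and 13.91 with shNSC (difference -2.58, SE 0.19, adjusted p = 5.34e-10). CHGA, the granule protein chromogranin A, read 8.38, 8.35 and 9.07 against 11.24, 11.08 and 11.52, with controls of 11.03, 10.94 and 11.17 that overlapped the shERK5-5 values (difference -2.68, adjusted p = 7.46e-10). KLF7, a transcription factor of neuronal growth, lay on both sides of shNSC, at -1.64 with shERK5-4 and 1.06 with shERK5-5. The growth regulator DLK1 differed by -2.76 and ALK, the receptor kinase mutated in part of neuroblastomas, by -2.52. Of 25 mesenchymal genes 8 were lower with shERK5-4 and 1 higher (median -0.11). At 36.0% called, this list is near the 37.9% of the third brightness class, where its mean level falls. SNAI2, the neural crest factor SLUG, read 8.21, 8.49 and 9.0 against 10.80, 10.91 and 10.99 (difference -2.33, adjusted p = 2.92e-06), while FN1, fibronectin, was higher with shERK5-4 by 1.12.

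Genes of neuronal differentiation split, with 14 of 27 lower with shERK5-4 and 4 higher (median -0.49, and 0.01 and 0.24 against shNSC). Together these are 66.7% of the list, beside 37.9% and 46.6% in the third and the brightest class. NEFM, the medium neurofilament, read 11.55, 11.59 and 11.92 with shERK5-4, 15.46, 15.45 and 15.29 with shERK5-5, and 13.34, 13.32 and 13.52 with shNSC. It lay below the controls with one hairpin and above with the other, and the difference was 13.1-fold (log2 -3.71, SE 0.19, adjusted p = 1.88e-12). DCX, doublecortin of migrating neuroblasts, was called above the controls with shERK5-5 only, at 11.88, 11.96 and 11.93 against 10.11, 9.73 and 10.10 with shERK5-4 and 9.78, 9.51 and 9.30 with shNSC. SYT1, a calcium sensor of vesicle release, differed by -2.10, and the secreted peptide precursor VGF by -1.96. L1CAM, an adhesion molecule of axons, was higher with shERK5-4, at 11.58, 10.70 and 11.58 against 8.42, 8.68 and 8.86 (difference 2.63, adjusted p = 1.53e-09). The RNA-binding protein ELAVL2 lay on both sides of the controls, at 1.26 with shERK5-4 and -0.90 with shERK5-5. Axon guidance genes went both ways, with 5 of 20 semaphorins, neuropilins and plexins lower and 5 higher, among them NRP2 (-2.74), PLXNA2 (-2.66), SEMA3C (-1.65) and SEMA6A (1.40). These are 10 calls among 20 genes, beside 37.9% of probes in the third class, where the list's mean level falls. Of 10 ganglioside synthesis genes 3 were lower and 1 higher, which is 40.0%, near the 37.9% of the third class. B4GALT5 and B4GALT6, which make lactosylceramide, differed by -3.24 and -2.03.

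The neuroblastoma marker list itself moved with these groups, with 81.8% called beside 46.6% in the brightest class. Of its 11 measured markers 9 were lower with shERK5-4 and 0 higher (median -1.22), and the mean log2 level of the list was 10.58 to 10.97 with shERK5-4, 11.9 to 12.1 with shERK5-5 and 11.7 to 11.9 with shNSC. Of 10 fibroblast markers 5 were lower and 1 higher. That is 60.0%, beside 24.5% over all probes and 37.9% and 46.6% in the third and the brightest class. Their mean levels were 8.72 to 8.74, 9.61 to 9.63 and 9.04 to 9.12 in the same order. LUM, lumican, a collagen-binding proteoglycan, was the largest of them. It read 11.55, 11.39 and 11.02 with shERK5-4, 15.73, 15.76 and 15.75 with shERK5-5, and 14.66, 14.53 and 14.27 with shNSC, so that the groups did not overlap (difference -4.43, SE 0.19, adjusted p = 1.3e-13). The related DCN, decorin, differed by -2.77 and PDGFRB, a growth factor receptor of mesenchymal cells, by -1.91, while ACTA2, smooth muscle actin, was higher with shERK5-4 by 1.84. Over 28 genes of extracellular matrix and TGF-beta signalling, which include LUM, DCN and TGFBR1, 5 were lower and 5 higher, and the median of 0.03 changed sign with the scaling of the arrays. These calls are 35.7% of the list, near the 37.9% of the third brightness class, where its mean level falls. TGFBI, an adhesion protein induced by TGF-beta, differed by -2.38. The part of the marker lists in these differences was not tested. Of 9 blood and immune markers 1, PTPRC, was lower (-2.38), of 7 Schwann cell markers 1, S100B, was higher (0.68, not called without replicate 2 of shERK5-4, adjusted p = 0.080, or without replicate 3 of shERK5-5, 0.076), and of 8 endothelial markers 0 were called, with 0 also at an unadjusted p under 0.05.

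In the BMP group GREM1, a secreted BMP antagonist, read 9.96, 8.22 and 9.82 with shERK5-4, 12.18, 12.33 and 12.58 with shERK5-5 and 13.63, 13.65 and 14.23 with shNSC (difference -3.03, SE 0.33, adjusted p = 1.88e-07). ID3, a target of BMP signalling, differed by -1.43, while the signal transducer SMAD1 and the inhibitor SMAD6 were higher with shERK5-4 by 1.09 and 1.83. Of the 20 genes in that list 7 were lower and 3 higher, and 4 were lower without replicate 1 of shERK5-4 or without replicate 1 of shERK5-5. The main fit called 10 of the 20, beside 24.5% over all probes and 37.9% in the third brightness class, where the list's mean level falls. Of 23 Notch genes 1 was lower and 3 higher, 17.4% of the list beside 24.5% over all probes and 37.9% in the third brightness class. One of the 3 higher, DTX1 (0.69), lost its call without replicate 2 or 3 of shERK5-4 and without replicate 1 or 2 of shERK5-5 (adjusted p 0.11 to 0.16). Higher too was the receptor NOTCH3 at 6.52, 7.09 and 6.84 against 4.53, 4.55 and 5.43 (difference 1.98, adjusted p = 6.97e-07). Of 17 YAP and TEAD targets 1 was lower and 4 higher, with ANKRD1 at 1.47. That is 29.4%, beside 24.5% over all probes and 37.9% in the third brightness class. ANKRD1 was below the controls with both hairpins, by -1.31 with shERK5-4 and -2.78 with shERK5-5.

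Because hairpins work through the small RNA machinery, its transcripts were read as well. Of 16 genes 4 were lower and 7 higher with shERK5-4 (median 0.37), and 2 were lower without replicate 2 of shERK5-4 or without replicate 3 of shERK5-5. In the main fit 68.8% of the list was called, beside 46.6% in the brightest class. The Argonautes differed in opposite directions. AGO1 read 7.54, 7.27 and 7.80 with shERK5-4, 8.84, 8.82 and 9.22 with shERK5-5, and 7.74, 7.71 and 7.55 with shNSC (difference -1.42, SE 0.20, adjusted p = 8.43e-06). AGO2, the Argonaute that cleaves its targets, was likewise above the controls with shERK5-5 alone, at 12.19, 12.42 and 12.18 against 11.38, 11.41 and 11.24 with shERK5-4 and 11.31, 11.27 and 10.94 with shNSC. AGO3 was below the controls with shERK5-5, at 8.69, 8.63 and 8.77 against 10.42, 10.39 and 10.21 with shERK5-4 and 9.83, 9.98 and 10.04 with shNSC (difference 1.64, SE 0.17, adjusted p = 8.67e-08). AGO4 and the GW182 proteins TNRC6A and TNRC6B, which join Argonautes to the deadenylation machinery, were higher with shERK5-4 by 1.09, 1.13 and 0.87.

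Interferon and inflammatory genes, which can respond to double-stranded RNA or to lentivirus, were dim here. Of 27 interferon-stimulated genes and RNA sensors 1 was lower and 2 higher (median 0.07). That is 11.1%, beside 11.4% of all probes in the second of the 4 brightness classes, where the list's mean log2 level of 4.64 to 4.84 falls. OAS3, an oligoadenylate synthetase, differed by -0.92, the RNA sensor RIGI by 1.06 and the interferon signal transducer IRF9 by 1.12. Of 15 NF-kB targets and cytokines 1 was lower and 1 higher, which is 13.3% beside 11.4% in the same class. Survival genes of the BCL2 family went both ways, with 4 of 15 lower and 5 higher, or 3 higher without replicate 1 of shERK5-5. In the main fit 60.0% of them were called, beside 37.9% in the third brightness class. BCL2 was below the controls with both hairpins, at 7.91, 7.86 and 7.83 with shERK5-4, 9.05, 9.21 and 9.74 with shERK5-5 and 10.38, 10.50 and 10.63 with shNSC (difference -1.47, SE 0.17, adjusted p = 8.06e-07). MCL1, another survival protein, differed by -1.37, BCL2L1, which encodes BCL-XL, by 1.27, and the pro-apoptotic BCL2L11 (BIM) by 1.30. Of 23 p53 targets 6 were lower and 3 higher, and without replicate 3 of shERK5-5 the lower count was 3. The main fit called 39.1% of this list, near the 37.9% of the third brightness class, where its mean level falls. GADD45A, a growth arrest gene, read 6.17, 6.55 and 6.64 with shERK5-4, 9.51, 9.65 and 9.59 with shERK5-5 and 9.27, 9.18 and 9.84 with shNSC (difference -3.13, SE 0.20, adjusted p = 4.86e-11). RRM2B, a ribonucleotide reductase subunit, was higher with shERK5-4 by 1.54 and the nuclease AEN lower by -1.85. Of 26 lysosome and autophagy genes 4 were lower and 3 higher, which is 26.9% beside 24.5% over all probes. Without replicate 3 of shERK5-5 the lower count was 2. In the third and the brightest class, where the mean level of this list falls, 37.9% and 46.6% of probes were called. ATG9A, the lipid scramblase of autophagosome formation, differed by -3.08.

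The same 2 hairpins were also compared in CHLA-90, whose arrays share no sample with those of SK-N-BE(2). There 5825 probes were called (27.2%), 3174 higher with shERK5-4 and 2651 lower. Probes called in both lines with the same sign numbered 2501, which is 47.7% of the SK-N-BE(2) calls and 42.9% of the CHLA-90 calls, and 209 had opposite signs. Across all 21448 probes the differences correlated with Pearson's r of 0.543 and Spearman's rho of 0.38, a description over probes, which are not independent. Among these shared genes the smaller of both differences was greatest for RTN3, at -5.16 in SK-N-BE(2) and -5.23 in CHLA-90, where it read 9.56, 9.49 and 9.74 with shERK5-4 and 15.15, 14.68 and 14.66 with shERK5-5. It was followed on the lower side by TMEM9B (-4.62 and -4.53), TMEM97 (-5.90 and -3.92), PRR16 (-3.81 and -5.70) and the copine CPNE2 (-3.74 and -4.44). On the higher side the first were ZDHHC20 (3.41 and 3.39), STARD7 (3.44 and 3.34), ARL2BP, a binding partner of the small GTPase ARL2 (3.09 and 3.17), TMEM64 (2.97 and 2.91) and the neuronal calcium sensor VSNL1 (2.69 and 3.47). SREBF2 differed by -3.74 and -3.51, KLF7 by -2.70 and -2.89 and CHGA by -2.68 and -2.85. MAPK7 gave -0.06 and -0.08.

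**Figure D5:**
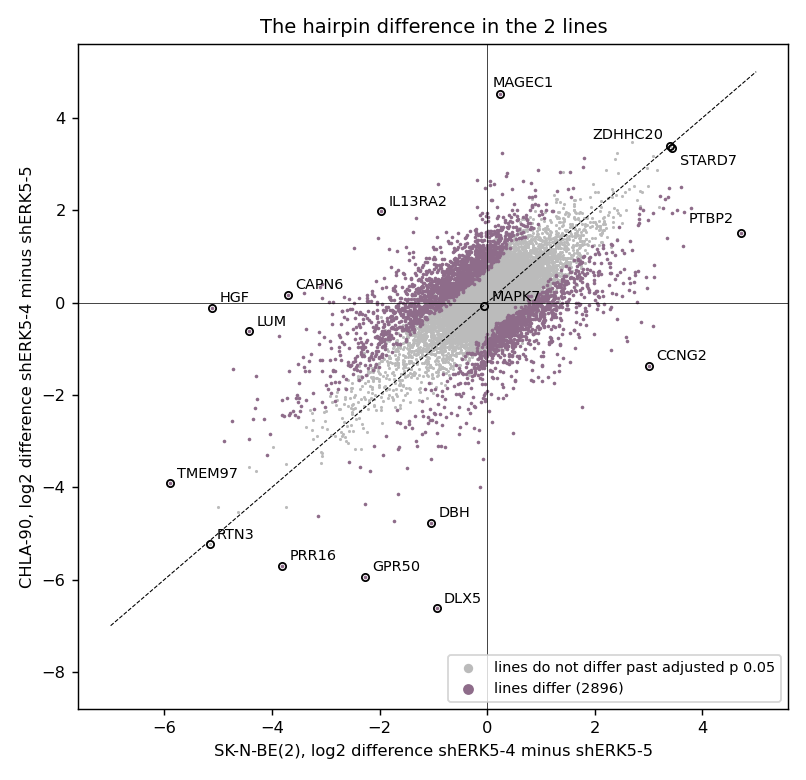
Log2 difference shERK5-4 minus shERK5-5 in SK-N-BE(2) (horizontal axis) against CHLA-90 (vertical axis), 1 point per probe, with the dashed line at equal values. Purple points are the 2896 probes whose difference itself differed between the lines at an adjusted p under 0.05. RTN3, STARD7 and ZDHHC20 lie on the dashed line, HGF and LUM far to its left and DLX5 far below it.

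The hairpin difference itself differed between the lines on 2896 probes (13.5%), 1169 (5.45%) with a larger value in SK-N-BE(2) and 1727 (8.05%) with a smaller one. These held 1717 of the SK-N-BE(2) calls (32.7%). HGF was low in every CHLA-90 array, at 4.42, 4.00 and 4.49 with shERK5-4 and 4.01, 4.75 and 4.50 with shERK5-5, and the lines differed by -4.99 (SE 0.28, adjusted p = 5.51e-10). LUM differed between lines by -3.80 and CAPN6, a calpain without protease activity, by -3.87. CAPN6 was likewise low in CHLA-90, with means of 4.66 with shERK5-4 and 4.49 with shERK5-5. CCNG2, an unconventional cyclin of quiescent cells, had opposite signs, at 12, 12.06 and 11.76 against 8.88, 9.11 and 8.80 in SK-N-BE(2), and 11.03, 11.22 and 10.84 against 12.77, 12.31 and 12.11 in CHLA-90 (line difference 4.38, SE 0.26, adjusted p = 5.51e-10). The decoy receptor IL13RA2 also had opposite signs (-1.97 and 1.98), as had the PACAP receptor ADCYAP1R1 (1.75 and -2.27). DLX5, a homeobox gene, was uncalled in SK-N-BE(2) (-0.94, adjusted p = 0.066) and lower with shERK5-4 in CHLA-90 (-6.63). Its SK-N-BE(2) difference was called without replicate 1 of shERK5-5 (adjusted p = 0.0038), without replicate 3 of shERK5-4 (0.0089) and with the replicate block (0.026). Among lists, hypoxia and glycolysis had a median of -0.35 in SK-N-BE(2) and 0.29 in CHLA-90, with 12 of 27 members lower and 2 higher in the test of the line difference. MYC targets and ribosome biogenesis had medians of -0.42 and 0.28, with 7 lower and 1 higher of 23, and MAPK output -0.91 and -0.33, with 8 lower and 1 higher of 25.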

How the data were processed

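RNA of 18 samples was labelled for GeneChip expression arrays, 3 replicates in each of 6 groups. The files hold a log2 signal for each probe and array, as deposited by the authors. Its summarisation, software and build are not stated in any label or header, and base 2 was read off the range of the values. The number of arrays limits the precision. A limma model (3.58.1, R 4.3.3) with 6 group means was fitted to all 18 arrays (12 residual and 9.588 prior degrees of freedom), with Benjamini-Hochberg adjustment over all 21448 probes. MAPK7 was also tested by exact permutation. The fit was tested on simulated data. The platform annotation gave 17709 probes 1 symbol and 3739 none. Where probes share a gene, the one with the highest mean stands for it.

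The members, the 36 lists (823 entries, 732 with a named probe) and the tests were chosen with earlier results of these data known. Named genes are MAPK7, the 12 most positive and 12 most negative called differences, up to 4 members per list with the smallest p, and 5 in each direction that were shared by both lines (ranked by the smaller difference), that differed most between lines, or that lay on opposite sides of shNSC. Probes without a symbol, small RNA genes, unnamed loci, pseudogenes and olfactory or taste receptors were passed over. Another 15 genes (E2F1, HMMR, HMGCS1, CHAC1, ELAVL2, DCX, AGO2, TNRC6A, XBP1, ALK, CCNE1, CCNB1, CDK1, MCM5 and PDK1), and the choice of EGR1, DUSP6, FOXM1, MYCN, SREBF2, ENO1, KLF7 and CHGA for the comparison of lines, came after their values were seen.

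Alternatives were median centring, quantile normalization, a replicate block, leaving out probes below the 25 percentile, fits to 1 line or to the groups compared, eBayes with trend and robust variance, weights for arrays, a fold of at least 1.5, a threshold of 0.01, averaged probes and leaving out each array. Weights per group were added after the spread of the arrays had been seen. Promoter letters are from RefSeq, where 33 of 39 G2 and mitosis, 42 of 47 G1/S, 19 of 21 cholesterol and 26 of 32 ATF4 genes were found. Figures used matplotlib 3.10.9 and Python 3.11.15.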

Additional observations from a re-analysis of the deposited data

Results flagged for a closer look

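Results below were picked out because the difference shERK5-4 minus shERK5-5 was itself unequal in SK-N-BE(2) and CHLA-90 by the interaction contrast of the limma model, at a Benjamini-Hochberg adjusted p under 0.05. This held for 2896 probes in all. Values in parentheses are the log2 difference in SK-N-BE(2) minus that in CHLA-90.

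Genes higher with shERK5-4 in both lines and by more in SK-N-BE(2) were PTBP2 (3.22), TGFBR1 (1.74), CHML (1.70), SHD (2.40), STC1 (1.11), SPAST (1.54), SERINC5 (1.50), MED28 (0.90), ELOVL4 (1.06), GPAM (1.96) and ACVR2B (1.22). Other genes with a positive value were PRR16 (1.90), DLX5 (5.69), CCNG2 (4.38), ADCYAP1R1 (4.02), DBH (3.73), GPR50 (3.67) and MYCN (1.64). Of these PRR16, GPR50, MYCN and DBH were lower with shERK5-4 in both lines and by more in CHLA-90, CCNG2 and ADCYAP1R1 had opposite signs in the lines, and DLX5 was called in CHLA-90 alone. Genes with a negative value were TMEM97 (-1.98), HGF (-4.99), PPIL1 (-1.88), SPARCL1 (-3.30), BIRC5 (-1.47), LUM (-3.80), LURAP1L (-1.84), POPDC2 (-2.03), MAGEC1 (-4.28), IL13RA2 (-3.95), CAPN6 (-3.87), CHRM2 (-2.69), DUSP6 (-1.76), EGR1 (-2.19), FOXM1 (-1.22) and ENO1 (-1.15). Of these HGF, CAPN6 and ENO1 were called in SK-N-BE(2) alone, MAGEC1 was called in CHLA-90 alone, where it was higher with shERK5-4, and IL13RA2 had opposite signs. MAGEC1 was dim in SK-N-BE(2), with means of 3.94 with shNSC, 3.88 with shERK5-4 and 3.65 with shERK5-5. DBH was also dim there, with means of 4.87, 3.81 and 4.85 in the same order. In CHLA-90 the dim genes included CAPN6 (5.02, 4.66 and 4.49) and SPARCL1 (4.21, 4.14 and 5.57).

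SREBF2, CHGA and KLF7 were set side by side between lines in the same way and did not pass, with adjusted p-values of 0.62, 0.75 and 0.61. Groups of 3 arrays are too small for a test of single outlying arrays.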

How the results depend on the processing

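The count of 5246 probes lay between 4456, with only the groups compared in the fit, and 5441, with the replicate block, under settings at the same threshold, and was 3858 at 0.01. At 0.01 the other counts left their 1.5-fold range for CHLA-90 (3715), for the difference between lines (1407) and for shERK5-5 against shNSC (1733), because the threshold is stricter. Leaving out 1 array gave 4475 to 5048 calls for SK-N-BE(2), 4460 to 5598 for CHLA-90, 2122 to 3103 for the line difference, 4368 to 4922 for shERK5-4 and 2036 to 2324 for shERK5-5 against shNSC. The MAPK7 difference ranged from -0.15 to 0.01 there (adjusted p 0.719 to 0.994). Its sign turned without replicate 1 of shERK5-4 (0.0033) and without replicate 3 of shERK5-5 (0.01). Weights per group, added after the data had been seen, gave 4837 calls for the hairpin comparison in SK-N-BE(2). For shERK5-5 against shNSC, calls rose to 3187 with only the groups compared, 3648 with weights per group and 3907 with array weights. The counts for shERK5-4 against shNSC in the same settings were 4213, 4595 and 4875.

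Deviations of arrays with the same replicate number correlated weakly in SK-N-BE(2) (r -0.126, 0.0126 and 0.204) and in CHLA-90 (0.15, -0.0138 and 0.144). The labels name no batch, and the main fit did not read the numbers as pairs. A replicate block raised each count, to 5441 calls in SK-N-BE(2), 6083 in CHLA-90 and 3173 for the line difference. Against shNSC it gave 5338 for shERK5-4 and 2900 for shERK5-5. A shared replicate effect was not tested further. Higher calls made up 48.4% of the SK-N-BE(2) calls, and no scaling moved that by over 10 points.

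Of 188 named genes besides MAPK7, 173 kept their sign and call under every alternative that tested them, and 5 of the 188 were too dim for the filter on dim probes. Leaving out 1 array also moved list counts of 0 to 2 calls by 1 in the ERK5, MAPK output, adrenergic, G1/S, fatty acid, YAP, NF-kB and Schwann lists. The list medians near 0 of p53 targets, fatty acid synthesis, ribosomal proteins, extracellular matrix, NF-kB targets, semaphorins and blood markers took either sign across alternatives. The files carry no detection calls, so how far dim probes stand above background is unknown.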
